A study of Mus musculus with 8 samples.

Results

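Open chromatin was examined at the loci of 4 interferon regulatory factors, Irf1, Irf2, Irf4 and Irf8, in mouse CD4 T cells. The loci were taken as each RefSeq gene body on GRCm38 (mm10) extended by 20 kb on both sides, and the members are all ATAC-seq peaks overlapping these windows. They numbered 393 of the 835203 peaks deposited for 8 libraries, and they fell into 70 of 175276 regions obtained by merging overlapping peaks of all libraries. In ATAC-seq a transposase inserts sequencing adapters into accessible DNA, so a peak marks an open stretch. Naive CD4 T cells were sorted from spleen, activated with antibodies to CD3 (0.25 µg/mL) and CD28 (1 µg/mL) together with 20 ng/mL TGF-β, and harvested after 48 h, with 90000 cells per sample. The groups, each of 2 libraries, were Tet1/3 cDKO plus IL-2, control plus IL-2, Tet1/3 cDKO without IL-2 and control without IL-2. All of them received TGF-β and both antibodies, and IL-2 was given at 100 U. The labels write the genotypes as Tet1/3 cDKO, which the design text calls deficient in both, and WT. They do not state which Cre drove the deletion, which exons it removed, or the age, sex and number of the mice.

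Interferon regulatory factors share a DNA-binding domain that recognises repeats of GAAA, the core of interferon-stimulated response elements. IRF1 is an activator induced by interferon, and IRF2 binds the same elements and can antagonise it. IRF4 is induced by signalling through the T cell receptor, binds DNA with BATF and JUN proteins in T cells, and is needed for effector programmes and for the function of regulatory T cells. IRF8 is closely related to IRF4, pairs with PU.1 in myeloid and B cells, and is best known for its role in monocytes and dendritic cells. TET enzymes oxidise methylated cytosine in CpG dinucleotides, and IL-2 is a growth factor for regulatory T cells.

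On GRCm38, Irf1 (gene ID 16362) lies on chromosome 11 at 53770014 to 53778374 (8.36 kb), and Irf4 (16364) on chromosome 13 at 30749233 to 30766981 (17.7 kb). Irf2 (16363) and Irf8 (15900) are both on chromosome 8, at 46739745 to 46847458 (108 kb) and 120736358 to 120756694 (20.3 kb). The windows of Irf1, Irf2 and Irf8 also hold long non-coding or other small genes, and that of Irf4 holds no other annotated gene.

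The 8 lists differed in length, from 65811 peaks in control plus IL-2 replicate 2 to 145979 in control without IL-2 replicate 1. Read depth is not stated in them. Comparisons therefore used equal-number lists, made of the 65811 strongest peaks of a library by −log10 p, and a rank below means the place of a region's best peak in that order (rank 1 is the strongest). The ranks rest on the authors' own p-values per peak. Of the 70 regions at the 4 loci, 42 were in at least 1 equal-number list and 28 appeared only deeper in the deposited lists. All 8 equal-number lists held 21 of the 42 (50.0%), against 40694 of 95899 regions (42.4%) genome-wide. Irf4 had 8 such shared regions, Irf2 had 6, Irf1 had 4 and Irf8 had 3, and protein-coding genes with any region had a median of 3 in the same kind of window. The widths of the 70 regions had a median of 325.5 bp, against 250 bp for all regions. At the outer edge of the Irf8 window, 1 region of 1473 bp was counted although 9 of the peaks merged into it lie outside the window.

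Promoter sequences from RefSeq (GRCm38.p6) are shown because a peak covered the whole window of 250 bases before to 50 bases after the start of each gene in all 8 libraries. All 4 genes are on the plus strand, and the sequences run 5′ to 3′. Capitals mark matches to 6 letter patterns searched on both strands, none of which overlap each other here. The patterns were the IRF repeat (GAAA, any 2 bases, GAAA), the GAS element TTCNNNGAA bound by STAT factors, the AP-1 site TGANTCA, an NF-κB site in 2 forms (GGGAATCCC, and GGG, any 2 bases, TTTCC) and the TATA box TATAAA. The windows are chr11:53769764-53770063 for Irf1, chr8:46739495-46739794 for Irf2, chr13:30748983-30749282 for Irf4 and chr8:120736108-120736407 for Irf8.
Irf1: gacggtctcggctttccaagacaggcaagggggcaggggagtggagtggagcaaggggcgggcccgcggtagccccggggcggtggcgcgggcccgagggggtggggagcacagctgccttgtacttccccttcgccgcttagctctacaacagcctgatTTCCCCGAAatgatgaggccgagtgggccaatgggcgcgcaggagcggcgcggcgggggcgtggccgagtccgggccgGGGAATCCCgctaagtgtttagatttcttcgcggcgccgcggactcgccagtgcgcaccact
Irf2: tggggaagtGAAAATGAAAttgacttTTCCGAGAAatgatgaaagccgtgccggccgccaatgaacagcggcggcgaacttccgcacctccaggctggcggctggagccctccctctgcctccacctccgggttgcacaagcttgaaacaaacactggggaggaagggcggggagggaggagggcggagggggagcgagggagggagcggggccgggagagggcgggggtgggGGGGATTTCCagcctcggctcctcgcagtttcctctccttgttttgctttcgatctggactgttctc
Irf4: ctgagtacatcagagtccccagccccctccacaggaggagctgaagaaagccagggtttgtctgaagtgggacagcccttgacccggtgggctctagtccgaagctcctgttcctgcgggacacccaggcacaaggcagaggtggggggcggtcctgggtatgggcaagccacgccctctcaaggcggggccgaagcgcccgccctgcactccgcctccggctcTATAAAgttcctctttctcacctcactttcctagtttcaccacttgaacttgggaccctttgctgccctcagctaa
Irf8: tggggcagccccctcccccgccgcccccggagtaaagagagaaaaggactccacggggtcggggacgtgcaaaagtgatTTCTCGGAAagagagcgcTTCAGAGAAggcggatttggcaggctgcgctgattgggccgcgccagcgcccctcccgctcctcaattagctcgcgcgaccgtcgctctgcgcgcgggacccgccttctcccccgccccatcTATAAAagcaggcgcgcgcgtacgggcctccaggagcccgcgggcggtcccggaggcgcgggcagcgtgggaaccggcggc

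The promoters differed in the patterns they hold. Irf1 had a GAS match, TTCCCCGAA, whose first base lies 90 bases before the start, and an NF-κB match, GGGAATCCC, 12 bases before it. Irf2 held the IRF repeat GAAAATGAAA 241 bases before the start, a GAS match (TTCCGAGAA) at 224 bases and the other NF-κB form, GGGGATTTCC, at 17 bases. Irf8 had 2 GAS matches, TTCTCGGAA and TTCAGAGAA, 171 and 153 bases before the start. Irf4 and Irf8 each had a TATA box, 26 and 31 bases before the start, and the Irf4 window held no other match. Of 21262 promoter windows of protein-coding genes of the same length, 7.69% held a GAS match, 12.6% a TATA box and 3.35% the IRF repeat. The NF-κB forms were in 0.39% and 1.6%, and the AP-1 pattern, in none of the 4, was in 6.99%. CpG dinucleotides, the substrate context of TET enzymes, numbered 38 in Irf8, 32 in Irf1, 19 in Irf2 and 11 in Irf4, against a median of 13. A match is a string of letters and no evidence that a factor binds there.

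Accessibility at the starts of Irf1, Irf2 and Irf8 ranked high in every library, and that at Irf4 lower. The region over the Irf1 start (53769339 to 53770857 on chromosome 11) ranked 5271 and 4513 in cDKO plus IL-2 and 3041 and 4839 in cDKO without IL-2. In controls it ranked 4701 and 2878 with IL-2 and 4629 and 1676 without. The genotypes overlapped, and this was the best-ranked region of the Irf1 locus.

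The Irf8 start (120735708 to 120736869 on chromosome 8) ranked 3775 and 8661 in cDKO plus IL-2 and 5209 and 9381 in cDKO without IL-2. In controls it ranked 8280 and 9711 with IL-2 and 8551 and 10786 without. The best rank in each IL-2 arm was a cDKO library, but the ranges of the genotypes overlapped. The second annotated Irf8 start, in the window chr8:120738389-120738688, was covered by a peak in no library, while the second Irf1 start lies within the peak of the first in all 8.

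The Irf2 start (46739207 to 46741759 on chromosome 8) ranked 6810 and 7998 in cDKO plus IL-2 and 9309 and 12404 in cDKO without IL-2, against 11906 and 7749 in control plus IL-2 and 10617 and 11802 in control without IL-2. Its peak reached further into the gene in 3 libraries, namely replicate 2 of cDKO plus IL-2 (2523 bp), of control plus IL-2 (2478 bp) and of cDKO without IL-2 (2510 bp). In the other 5 the best peak spanned 638 to 1281 bp, and the region held 2 or 3 separate peaks instead of 1. The widths therefore do not show that the stretch was closed in those 5. The wide form was seen in both genotypes, and whether it is more than a joining of peaks was not tested.

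The Irf4 start (30748340 to 30749540 on chromosome 13) ranked 18457 and 26262 in cDKO plus IL-2 and 17785 and 24488 in cDKO without IL-2, against 21220 and 11508 in control plus IL-2 and 25881 and 17327 in control without IL-2. Genotypes and IL-2 arms overlapped. The summit, the point of highest coverage, lay within the printed window in 6 libraries. In replicate 1 of cDKO without IL-2 and replicate 2 of control without IL-2 it lay upstream of the window, at positions -675 and -684 relative to the start, so the strongest point under this peak was not the same in all libraries. For Irf1, Irf2 and Irf8 the summit lay within the window in all 8.

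**Figure D1:**
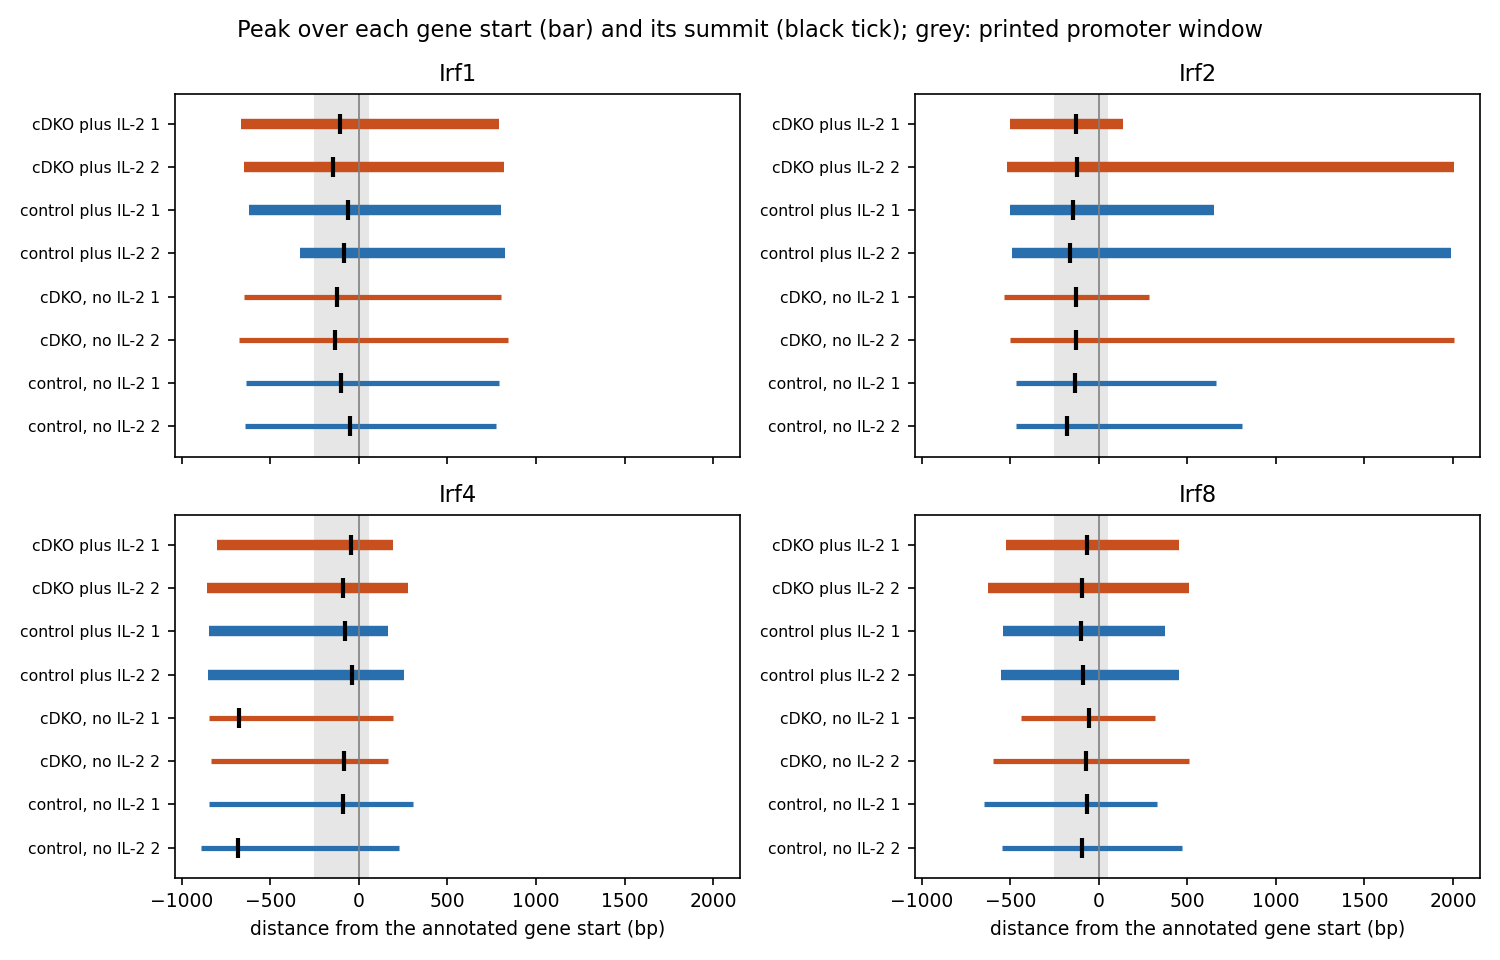
Peaks over the annotated starts of Irf1, Irf2, Irf4 and Irf8 in each library, as distance from the start in bp. Bars span the deposited peak (orange cDKO, blue control; thick with IL-2), black ticks mark summits, and the Irf4 summit lies upstream of the window in 1 cDKO and 1 control library.

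The number of open regions per locus did not differ detectably with genotype or IL-2. Values are given with IL-2 first, replicates 1 and 2, and then without IL-2. Irf4 had 10 regions in all 4 cDKO equal-number lists, against 11, 12, 10 and 11 in the control lists (mean 11 ± 0.816, SD, exact two-sided permutation p = 0.143, n = 4 per side). Irf2 had 9, 12, 9 and 12 in cDKO, against 13, 12, 11 and 14 in control (10.5 ± 1.73 and 12.5 ± 1.29, exact permutation p = 0.2, n = 4 per side). Control libraries held more in 3 of 4 for Irf4 than any cDKO library, and Irf2 counts overlapped.

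Irf8 had 5 regions in all 4 cDKO lists, against 3, 6, 3 and 4 in control lists (mean 4 ± 1.41, exact permutation p = 0.314, n = 4 per side). The controls with 3 are the replicates 1, whose deposited lists were the longest of that genotype (113317 and 145979 peaks), and those with 6 and 4 had 65811 and 92488 peaks. The part of list length in these counts was not tested. Irf1 had 4, 4, 5 and 5 in cDKO and 4, 5, 5 and 4 in control (4.50 ± 0.577 each, exact permutation p = 1, n = 4 per side). All 4 loci together held 30.0 ± 1.83 regions in cDKO and 32.0 ± 2.58 in control (exact permutation p = 0.314, n = 4 per side). Benjamini-Hochberg adjustment over the 10 tests gave 0.786 or more for every one of these, where 4 against 4 libraries allow no p under 0.0286. Even at that p a single locus alone could not reach an adjusted 0.05, so these tests cannot show that the loci are alike. With IL-2 the loci together held 31.2 ± 2.87 regions, against 30.8 ± 2.06 without it (exact permutation p = 0.886). The 4 single loci differed by at most 0.5 regions with IL-2 in these windows and lists (exact permutation p of 0.486 to 1, n = 4 per side). With 50 kb windows the IL-2 libraries had on average 3.5 more regions at Irf4 than those lacking it (p = 0.0286 by exact permutation, 0.286 after adjustment), so the size of this difference depended on the window.

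**Figure D2:**
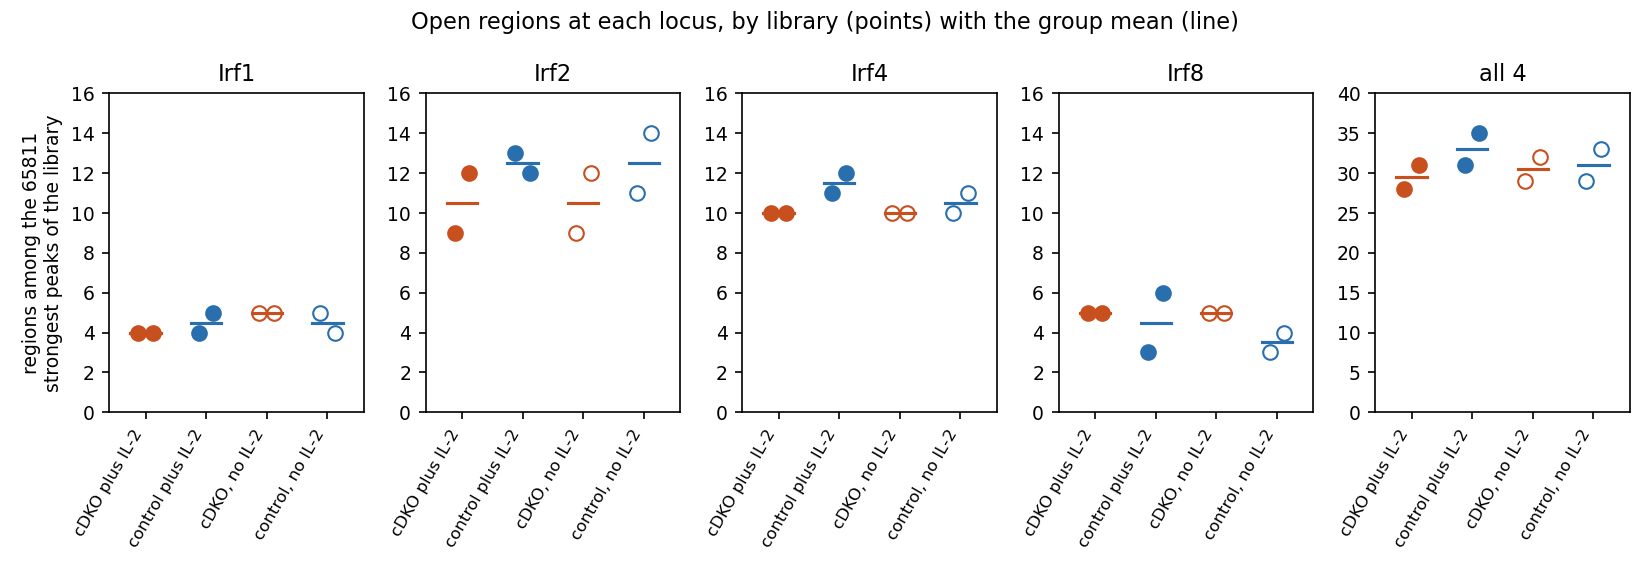
Number of regions at each locus among the 65811 strongest peaks of a library, by group. Points are libraries and lines are group means of 2 libraries; Irf4 has 10 in every cDKO library and 10 to 12 in controls.

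The loci differed in where their strongest regions lay. At Irf4 the best-ranked regions were not at the start. A region 37.4 kb from the start and 19.6 kb beyond the gene's end (30786114 to 30787077 on chromosome 13) had the best median rank, 5616. It ranked 5846 and 6726 in cDKO plus IL-2 and 2743 and 5353 in cDKO without IL-2, against 5130 and 6013 in control plus IL-2 and 8360 and 5386 in control without IL-2. Genotypes overlapped there.

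An intragenic Irf4 region 11.6 kb from the start (30760110 to 30761653) ranked 5626 to 7058 in cDKO libraries and 2879 to 11776 in controls. Controls differed among themselves, with 2879 and 3307 in both replicates 2 but 10123 and 11776 in both replicates 1. A region 11 kb beyond the gene's end (30777583 to 30778302) was within rank 10000 in all 8 libraries, as was the one 19.6 kb beyond. It ranked 5872 and 8057 in cDKO plus IL-2 and 8295 and 7335 in cDKO without IL-2, against 4228 and 6159 in control plus IL-2 and 5563 and 3533 in control without IL-2. Of the cDKO ranks, 3 of 4 were worse than every control rank, but 5872 lay inside the control range. The authors' fold over background did not follow this order. It was 16.2 and 13.2 in cDKO plus IL-2 and 16.8 and 16.4 in cDKO without IL-2. In controls the fold was 13.9 and 12.7 with IL-2 and 13.7 and 16.3 without.

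A region over the end of Irf4 had the better median rank in cDKO, though the ranges overlapped. This region (30766726 to 30767919) has its midpoint 0.342 kb past the last base of the gene. It ranked 31621 to 40763 in cDKO, with a median of 35876, against 40298 to 63941 in control, with a median of 56592. The ranges met only through the worst cDKO library, 40763, and the best control, 40298.

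At Irf1 the regions listed everywhere lay 14.8 kb and 6.47 kb upstream, over the start, and 16.8 kb beyond the end within the long non-coding gene Gm12216. The upstream region at 6.47 kb (53762878 to 53764201 on chromosome 11) ranked 6126 and 9150 in cDKO plus IL-2 and 8335 and 6123 in cDKO without IL-2. Controls ranked it 13111 and 9203 with IL-2 and 13867 and 8891 without. The region 14.8 kb upstream had medians of 26511 in cDKO and 19446 in control, and the one in Gm12216 had medians of 7634 in cDKO and 10264 in control. For each of these 3 regions the genotypes overlapped, through 1 library of each.

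Irf2, by far the longest of these genes (108 kb), had its best region at the start and another strong one near its end, 105 kb from the start (46844438 to 46845425). That one ranked 11930 to 19289 in cDKO and 15232 to 26424 in control. Regions 13.5 and 16.3 kb inside the gene, 16.9 kb upstream and 12.2 kb beyond the end were also in all 8 equal-number lists, with median ranks of 23953.5 to 31387. No Irf2 region was within rank 10000 in all 8 libraries.

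At Irf8 the regions in all 8 lists were all at or before the start, 20.5 kb and 10.8 kb upstream and over the start itself. The one at 20.5 kb is the region at the window's edge, with 9 of its peaks outside the window. No cDKO library had a peak of it inside the window, yet it enters all Irf8 counts of regions given here. The region 10.8 kb upstream (120725113 to 120725934) ranked 16367 and 11362 in cDKO plus IL-2 and 16493 and 12508 in cDKO without IL-2, against 6645 and 12270 in control plus IL-2 and 16632 and 13099 in control without IL-2. Inside the Irf8 body, beyond the start, 1 region reached any equal-number list, 15.8 kb from the start (120751821 to 120752552). It ranked 56792 and 45657 in cDKO plus IL-2 and 24904 and 32977 in cDKO without IL-2. Controls ranked it 75372 and 55261 with IL-2 and 70078 and 54519 without, so both replicates 1 of control were past the equal-number limit of 65811.

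**Figure D3:**
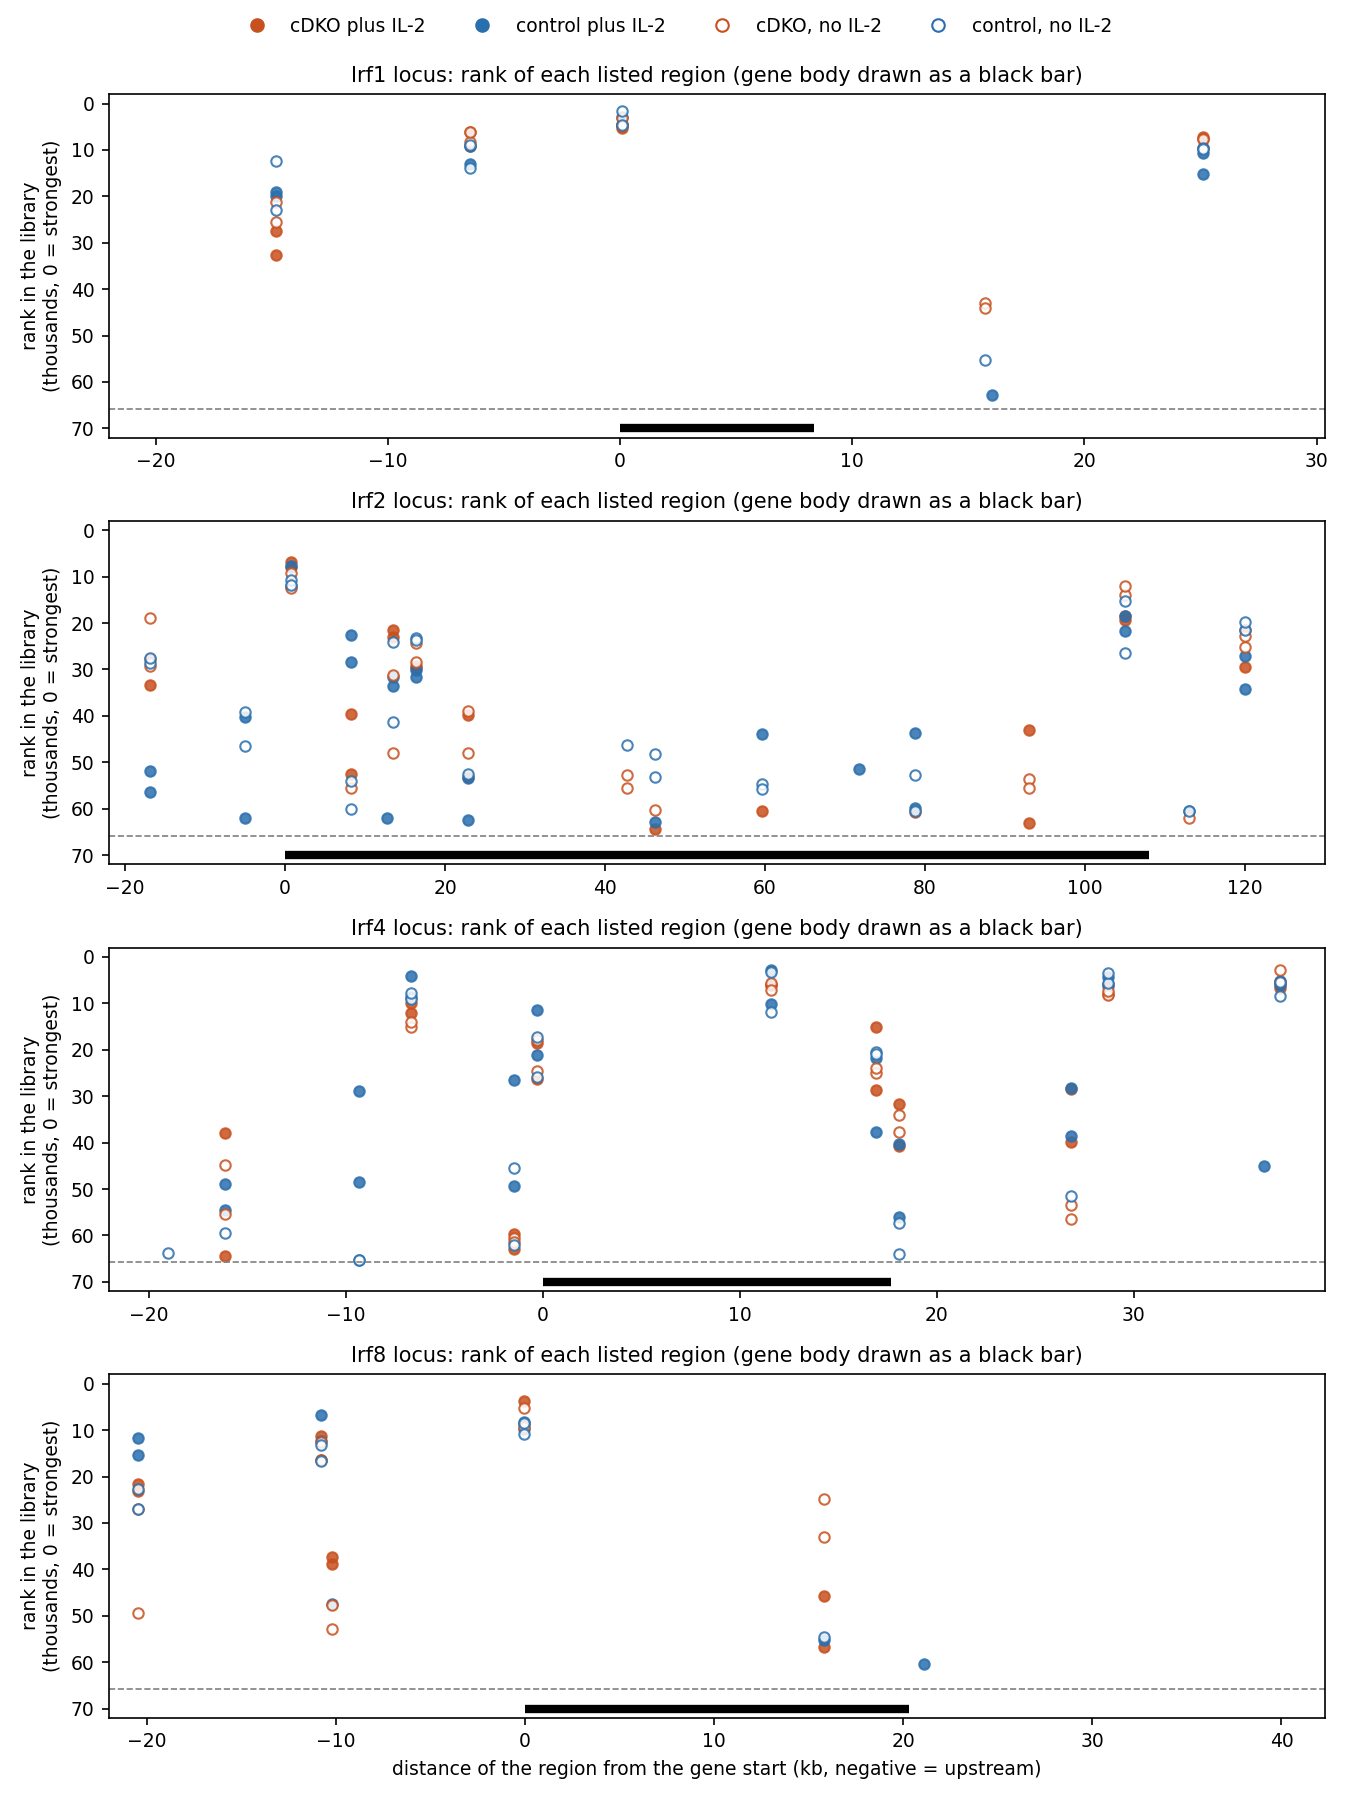
Rank of every region in the equal-number lists against its distance from the gene start (kb), for the 4 loci, in all 8 libraries. Filled points are libraries with IL-2 and open points those without (orange cDKO, blue control), and strong regions sit at the top; the dashed line is the limit of 65811 peaks, and at Irf8 regions listed by all libraries lie only at or upstream of the start.

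A peak upstream of Irf4 was absent from all Tet1/3 cDKO libraries. Below, a region is called higher in one condition if it is in the lists of all its libraries and in none of those it is set against, and lower in the opposite case. For genotype, 3 of the 42 regions were called (7.14%), against 1.82% of 95899 regions genome-wide. Of the 3, 1 was higher in cDKO, against 0.706% genome-wide, and 2 were lower, against 1.12%. With so few regions these shares are a description of 3 sites.

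The lower Irf4 region, 9.31 kb upstream of the start (30739805 to 30740043 on chromosome 13, 239 bp), was in none of the 4 deposited cDKO lists at any rank. In controls it ranked 28977 and 48501 with IL-2 and 65222 and 65364 without. The authors' fold over background was 7.71 and 4.30 in control plus IL-2 and 5.49 and 4.30 in control without IL-2. The ranks without IL-2 were close to the limit of 65811, and with lists of 32905 peaks the call was lost, since 1 control library then listed the region. It held with the deposited lists in full, where 1 of the 70 regions was called, against 0.584% of 175276 genome-wide in either direction and 0.289% lower in cDKO. Over all 8 libraries, this is the single region of the 4 loci called for genotype by both kinds of list.

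A neighbouring Irf4 region, 6.67 kb upstream (30742262 to 30742871), was listed by all libraries but ranked lower in cDKO. It ranked 9909 and 12092 in cDKO plus IL-2 and 15056 and 13977 in cDKO without IL-2, against 4167 and 8698 in control plus IL-2 and 9083 and 7814 in control without IL-2. Every cDKO library ranked it below every control library, with medians of 13034.5 in cDKO and 8256 in control. Among the 21 regions in all 8 equal-number lists it was the only one with such a separation (4.76%), against 11.9% of 40694 such regions genome-wide in either direction and 5.72% in this one. A single separated region of 21 is therefore no more than the background share. The authors' fold over background at this region overlapped between the genotypes. It was 13.1 and 11.5 in cDKO plus IL-2 and 12.3 and 12.2 in cDKO without IL-2. In controls the fold was 13.4 and 10.8 with IL-2 and 12.1 and 12.8 without.

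Both Irf2 calls for genotype over all 8 libraries depended on the limit of the lists. The region 5.02 kb upstream of Irf2, within the long non-coding gene Gm16675 (46734603 to 46734848 on chromosome 8), ranked 90174 and 93312 in cDKO plus IL-2 and 66819 and 66096 in cDKO without IL-2. Controls ranked it 61914 and 40143 with IL-2 and 46458 and 39176 without. It was thus deposited in all 8 libraries, at worse ranks in every cDKO library than in any control.

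The region 93 kb inside Irf2 (46832592 to 46832860) was higher in cDKO. It ranked 43094 and 63018 in cDKO plus IL-2 and 53661 and 55562 in cDKO without IL-2. Both control libraries with IL-2 lacked it at any rank, and those without IL-2 held it at 69780 and 90981. Among the libraries with IL-2 alone, the region was therefore called in the deposited lists too. Irf1 and Irf8 had no region called for genotype over all 8 libraries.

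**Figure D4:**
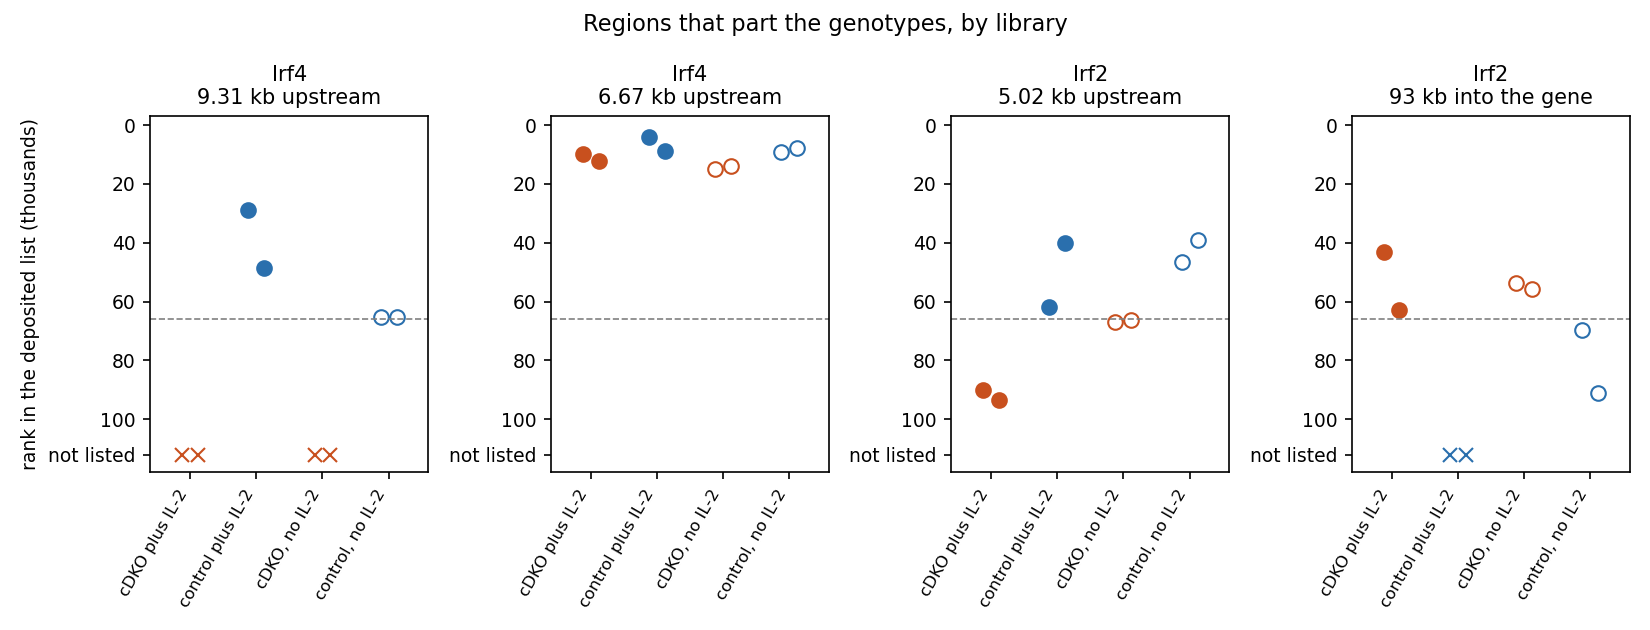
Rank in the deposited list (strongest at the top) of 4 Irf4 and Irf2 regions where listing or rank parts cDKO (orange) from control (blue). Crosses mark libraries without a peak and the dashed line the limit of 65811; the Irf4 region 9.31 kb upstream has no peak in any of the 4 cDKO lists.

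Within each IL-2 arm, where 2 libraries stand against 2, the same sites recurred by construction and a few more were added. Without IL-2, 6 of 37 regions were called for genotype, against 9.23% genome-wide, with 2 higher and 4 lower in cDKO (4.42% and 4.81% genome-wide). The additional lower ones lay inside Irf2, 59.6 kb and 78.8 kb from its start. The first ranked 85467 in replicate 2 of cDKO without IL-2 and was absent from replicate 1, against 54740 and 55738 in control without IL-2. The second ranked 88150 and 81183 in cDKO, against 60454 and 52666 in control. The additional higher one, 10.2 kb upstream of Irf8, ranked 52830 and 47714 in cDKO without IL-2, against 70640 and 81588 in control without IL-2. With IL-2, 3 of 39 regions were called, against 8.51% genome-wide, 1 higher (4.05%) and 2 lower (4.46%), and these were the 3 already described. With the deposited lists in full, 7 of 66 regions were called without IL-2, against 6.07%, and 4 of 62 with IL-2, against 5.75%.

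IL-2 parted few regions at these loci, but counts this small do not set the loci apart from the genome-wide shares. Over both genotypes 0 of 42 regions were called, against 0.578% genome-wide, and 0 of 70 in the deposited lists, against 0.253%. The rule gives no p-value. In control cells 0 of 41 were called, against 5.55%, and 2 of 63 in the deposited lists, against 4.34%. In cDKO cells 2 of 34 were lower with IL-2, against 6.78% in either direction and 3.48% lower, and 2 of 55 were called in the deposited lists, against 5.51%. Of these, the region 7.30 kb beyond Irf1, in Gm12216, ranked 66227 and 69597 in cDKO plus IL-2, against 42978 and 44135 in cDKO without IL-2. The region 42.7 kb inside Irf2 ranked 66858 and 82822 in cDKO plus IL-2, against 55479 and 52646 in cDKO without it. Both regions were still deposited in every cDKO library, past the limit in the 2 with IL-2. In ranks, 1 of 21 regions (4.76%) was separated by IL-2, against 5.78% genome-wide and 3.01% in the direction seen, lower with IL-2. It lies 16.3 kb inside Irf2 (46755814 to 46756375) and ranked 29217 to 31594 with IL-2 and 23228 to 28371 without. There the genotypes were ordered oppositely in the 2 IL-2 arms, as in 3.35% of all such regions.

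Several protein-coding genes had the same profile over the 8 libraries, measured as the Pearson correlation of the number of equal-number regions in the same kind of window among 11168 genes with at least 8 regions. Whole numbers this small tie easily, and no p is given. For Irf1 the nearest were Mfsd7a and Tmem9b (r = 1.00), for Irf4 Ccdc9 and Dock11 (r = 1.00), for Irf8 Rae1 (r = 1.00) and Klhl29 (r = 0.963), and for Irf2 Ldb1 and 4833420G17Rik (r = 0.959). With r of 1, 6 genes tied for Irf1 and 5 for Irf4.

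The wider pathway was described with other genes in the same kind of window. Other IRF family members and cofactors (Irf3, Irf5, Irf7, Irf9, Irf2bp1, Irf2bp2 and Irf2bpl) had 48 listed regions, of which 0 were higher and 0 lower in cDKO, against 0.706% higher and 1.12% lower genome-wide. Among their 31 regions in all 8 lists, 1, at Irf7, ranked higher in every cDKO library than in any control, against 6.15% genome-wide. Counts this small are a description of single sites in this and the following groups, for which the same shares apply. DNA-binding partners (Batf, Batf3, Jun, Junb, Spi1, Spib, Ikzf1, Ikzf3, Bcl6 and Tcf3) had 128 listed regions, with 0 higher and 1 lower, inside Batf3, which encodes a partner of IRF factors in dendritic cells. It ranked 79249 and 67284 in cDKO plus IL-2 and was absent from cDKO without IL-2, against 35482 to 54591 in controls.

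Interferon receptors and their signalling genes (Ifngr1, Ifngr2, Ifnar1, Ifnar2, Jak1, Jak2, Tyk2 and Stat2) had 89 listed regions, with 1 higher, inside Jak1, and 2 lower, inside Jak1 and 14.0 kb outside Stat2. Among regions in all 8 lists, 9 of 51 in this group ranked lower in every cDKO library than in any control, and 2 of 51 ranked higher, beside genome-wide shares of 5.72% and 6.15%. The 9 lay at Jak1 (3), Ifnar1 (2), Ifngr1, Ifnar2, Jak2 and Tyk2 (1 each). For the DNA-binding partners the split was 1 lower and 7 higher of 65, with 3 of the 7 at Ikzf3. None of these 3 groups had a region called for IL-2, against 0.578% genome-wide. In ranks, IL-2 separated 1 region higher and 3 lower of the 51 of the interferon receptors and signalling genes. They lay at Jak1, Jak2 and Tyk2, and the genome-wide share was 5.78% in either direction. Of the IRF family and cofactors and of the DNA-binding partners, IL-2 separated 0 regions.

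Peaks were present at marker genes of T cells and at those of other cells. The lists hold unlike numbers of genes, so their totals cannot all be compared. The 8 T cell marker loci (Cd3e, Cd3d, Cd3g, Cd4, Cd5, Lck, Cd28 and Zap70) held 58 to 62 equal-number regions per cDKO library and 56 to 64 per control library. In cDKO and control libraries, in that order, the 7 B cell marker loci held 28 to 34 and 29 to 31, the 8 myeloid and dendritic loci 27 to 31 and 31 to 33, the 3 NK cell loci 16 to 21 and 17 to 18, the 2 CD8 loci 6 and 5 to 6, and the 3 erythroid loci 9 to 11 in both. With IL-2 the T cell loci held 56 to 61 regions, against 58 to 64 without, and the myeloid and dendritic loci 27 to 31, against 27 to 33. Spi1 is both on the myeloid list and among the DNA-binding partners. Within the gene bodies of Ms4a1, Lyz2, Siglech, Ncr1 and Tyrobp no equal-number list had a region. Other bodies on the same lists did, among them Pax5 (3 to 5), Blk (2 to 5), Flt3 (4 to 6) and Spi1 (3 to 4). T cell gene bodies ran from 1 in Cd3g to 4 to 9 in Cd28, so these counts do not set T cell genes apart. Of 10 listed regions at the CD8 loci, 1 at Cd8b1 was called higher in cDKO and 1 at Cd8a lower. Of 47 at the myeloid and dendritic loci, 1 at Adgre1 was higher, and of 44 at the B cell loci, 1 at Cd79a was lower, against 0.706% higher and 1.12% lower genome-wide. The part of other cells in the Irf8 regions was not tested. Of the targeted genes, the Tet1 body held 5 to 8 listed regions and the Tet3 body 10 to 12 over the 8 libraries, with 1 of 34 listed regions at both loci, inside Tet3, called higher in cDKO. Since the deleted exons are not known here, this does not check the deletion.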

How the data were processed

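ATAC-seq peak lists of 8 libraries (4 groups of 2) were analysed as deposited. Per the submitters' processing notes, the build was GRCm38 (mm10). They also list MACS2 2.2.7.1, Bowtie2 2.4.1, Trimmomatic 0.39, HOMER 4.11.1, ChIPseeker 1.18.0, DiffBind 2.10.0, SAMtools 1.3.1 and Picard, but give neither role nor order. The sources used here do not say how reads were shifted for the transposase, how duplicates were treated or with which settings peaks were called, and any of these could change which weak peaks are listed. The authors deposited 1 list per library, with a fold over background (a ratio), −log10 values of p and q (largest q 0.05), a summit offset and a score, which was not used.

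Peaks overlapping by at least 1 bp over all libraries were merged into regions (Python 3.11.15, pandas 2.3.3). Ranks follow −log10 p within each library, and equal-number lists hold the 65811 best. Counts per library were compared with exact two-sided permutation tests over 70 relabellings. Libraries were relabelled freely, so the genotype tests took no account of IL-2, the IL-2 tests none of genotype, and neither of replicate number. Calls per region carry no test, so the genome-wide share called by the same rule is given. The design text calls the replicates biological, but animals are not named, so the tests measure the spread among these libraries, which may be partly technical. Regions within a window share libraries and are not replicates.

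Regions were named by rule: each locus's best-ranked region, the one at the gene start, any region called or separated in rank, and those within rank 10000 in all libraries. Others are given as examples, chosen after their values were seen. Members, lists and letter patterns were chosen with earlier results of these data known. Gene bodies came from the RefSeq table of GRCm38.p6, where all 4 members and all genes listed in the text matched; exons and introns were not analysed here. Alternatives were list length, overlap, q limit, window size, a replicate block and leaving out each library. Some genes of the pathway lists are not reported here, and the counts of those lists leave them out.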

Additional observations from a re-analysis of the deposited data

Results flagged for a closer look

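The order of the genotypes at the region 16.3 kb inside Irf2 (chromosome 8, 46755814 to 46756375) turned round between the IL-2 arms. Without IL-2 it ranked 28371 and 24252 in cDKO libraries, against 23228 and 23719 in controls, so cDKO ranked it worse. With IL-2 it ranked 29680 and 29217 in cDKO, against 31594 and 30187 in controls, so cDKO ranked it better. The control minus cDKO difference of median ranks was 4280 larger with IL-2 than without. The difference was not tested, and 3.35% of the 40694 regions in all 8 equal-number lists show such an opposite order.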

How the results depend on the processing

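No test of regions per locus passed an adjusted p of 0.05 in any alternative (exact permutation, adjusted p from 0.286 to 1). A single locus alone could not have passed, since the smallest p of 0.0286 is too large after adjustment over 10 tests. The signs below belong to differences that never passed. The difference in regions per library (cDKO minus control, or with minus without IL-2) changed sign in these cases. With deposited lists in full it was -1.75 for Irf8 by genotype, and by IL-2 -1 for Irf4, -0.25 for Irf8 and -3 for all 4 loci. With lists limited to a q of 0.01 these were -2, -1.25, -0.5 and -3.25. With lists of 32905 peaks the genotype difference was 0.25 for Irf2 and 0.25 for all 4 loci, and with 50 kb windows the IL-2 difference was 0.25 for Irf1. Leaving out 1 library gave -0.75 to 1.58 for all 4 loci by IL-2, and the sign changed without replicate 2 of control plus IL-2 and without replicate 1 of either genotype lacking IL-2.

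Unadjusted p reached 0.0286, the smallest that these exact permutations give, in 4 cases with an adjusted p of 0.286. They were Irf4 by IL-2 with 50 kb windows (3.5) and with lists of 32905 peaks (1), Irf4 by genotype without replicate 1 of the control lacking IL-2 (-1.33), and Irf8 by genotype without replicate 2 of control plus IL-2 (1.67). With 50 kb windows the IL-2 difference of all 4 loci was 5 (exact permutation p = 0.0857).

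Numbers of called regions were small and moved with the setting. Each setting also changes how many regions are tested and called genome-wide. Those shares are given above for the deposited lists and not for the other settings. The counts below are therefore no result about these loci. For genotype, 3 regions became 1 with deposited lists, 1 with a q of 0.01, 0 with lists of 32905 peaks and 1 in gene bodies alone. The Irf4 region 9.31 kb upstream was the 1 left with deposited lists and a q of 0.01, and was lost with lists of 32905 peaks. With lists of 32905 peaks the calls were 0 without IL-2 and 1 with IL-2, and 5 with IL-2 where a peak had to cover 50% of its region. For IL-2 there was 1 call with 50 kb windows. In control cells there were 2 with deposited lists, 2 with a q of 0.01, 2 with lists of 32905 peaks and 2 under 50% cover, and in cDKO cells 0 with lists of 32905 peaks. With a q of 0.01, ranks separated 3 regions by genotype and 3 by IL-2. The cause was not tested.

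Leaving out each library gave 3 to 4 calls for genotype, 6 to 10 without IL-2 and 3 to 8 with IL-2. For IL-2 it gave 0 to 1, in control cells 1 to 7 and in cDKO cells 2 to 4. Separations in rank numbered 1 to 3 by genotype and 1 to 4 by IL-2. With fewer libraries the rule is easier to meet. Without replicate 1 of control plus IL-2 there were 8 genotype calls with IL-2 and 7 calls for IL-2 in control cells, and 10 genotype calls in the arm lacking IL-2 when its control replicate 2 was dropped. A call or separation cannot be lost by leaving out a library, so these counts say nothing on how stable the named calls are.

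Differences between replicates 1 and 2 correlated at 0.375 between the control groups with and without IL-2 and at 0.0375 between the cDKO groups, over 40694 regions. Between a control and a cDKO group the correlations were -0.19 to -0.0396. Replicate numbers therefore went together within controls, but they were not taken as pairs over all groups. With a replicate block the genotype difference was -2 for all 4 loci, and no test passed (exact permutation). Crossed numbers for cDKO, an alternative chosen after seeing the data, gave no call either (0 of 10 tests). Both outcomes were fixed in advance, because a block leaves too few relabellings for any p under 0.05. The blocked tests therefore say nothing on whether the loci differ.

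Peak lists without read counts limit all comparisons to listing and rank, and 2 libraries per group limit them further.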

Other observations

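Some weak regions, near or past the limit of the equal-number lists, were deposited in a single group. Inside Irf4, 6.99 kb from its start (chromosome 13, 30756123 to 30756313), a peak was deposited in both cDKO libraries without IL-2, at ranks 76812 and 66065, and in none of the other 6. A region 19.0 kb upstream of Irf4 (30730186 to 30730357) was deposited in both control libraries without IL-2, at ranks 76347 and 63730, and in no other. Both are among the 7 of 66 regions called for genotype without IL-2 in the deposited lists, against 6.07% genome-wide. These regions were chosen after their values were seen, and no test was made.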
